A study of Yucca flaccida with 12 samples.

Results

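The 150 transcripts with the highest mean abundance in leaves of Yucca flaccida 'Golden Sword' are described here, out of 185746 genes in the deposited tables, where a gene is a cluster of assembled transcripts. They were chosen by their level: each count was divided by the total of its library and multiplied by 1000000 (CPM), and the 150 genes with the highest mean CPM over the 12 libraries were taken. Levels therefore chose the members and are given as a description with no test. Differences between groups played no direct part in the choice, and they are tested below. A transcript that is very high in a single group can enter through that group alone.

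Leaf blades of variegated plants, which carry zones of different colour, and of unvariegated plants were divided into edge and centre, and messenger RNA of each was sequenced. VE and VC denote edge and centre of variegated leaves, UE and UC those of unvariegated leaves, with 3 libraries per group. All plants carried the genotype label Golden Sword, were kept in vitro, received no treatment and were sampled at the second youngest leaf. Which zone was pale is not stated in the labels, nor whether edge and centre came from 1 leaf or replicates from different plants. P-values here therefore measure only how these libraries scatter, and that scatter may be technical.

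In green leaves the most abundant nuclear messenger RNAs commonly encode proteins of photosynthesis. Among them are the small subunit of Rubisco, the enzyme that fixes carbon dioxide, and the chlorophyll-binding proteins of the light-harvesting antennae. In variegated leaves the pale zones generally hold plastids that lack normal chlorophyll, and transcripts of photosynthesis are often lower in such zones. The deposited tables pair no identifier with a gene name, so no member is assigned a function here and the labelled tissue was not checked against leaf marker genes. All 150 members belonged to the assembly group Cluster-20123, which held 103846 of the genes.

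Total estimated counts lay between 13139086 and 20306020 per library. The lowest count of any member in any library was 19.73, the second lowest member minimum was 150, and the median over members of the lowest library count was 8333. Counting error was therefore small for nearly all members, with a median of 0.011 on the log2 scale, against a median standard deviation (SD) between replicates of 0.26. In bulk tissue, fewer cells of a type and less RNA per cell cannot be told apart.

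The members held the largest share of counts at the variegated edge. They took up 34.5%, 35.1% and 34.1% of all counts in VE1, VE2 and VE3, and 27.4%, 25.9% and 23.8% in VC1, VC2 and VC3. In unvariegated leaves the share was 30.2%, 30.0% and 27.2% in UE1, UE2 and UE3, and 26.5%, 26.7% and 28.8% in UC1, UC2 and UC3. VE did not overlap any other group, whereas VC, UE and UC overlapped. The larger part of the contrast lay in the 10 most abundant transcripts, which held 15.6% ± 0.159 in VE and 10.7% ± 0.711 in VC, against 12.8% ± 0.442 in UE and 11.6% ± 0.975 in UC (SD, n = 3). The 100 members at ranks 51 to 150 differed less, with 9.11% ± 0.238, 7.44% ± 0.531, 8.08% ± 0.581 and 7.69% ± 0.095 in the same order.

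**Figure D1:**
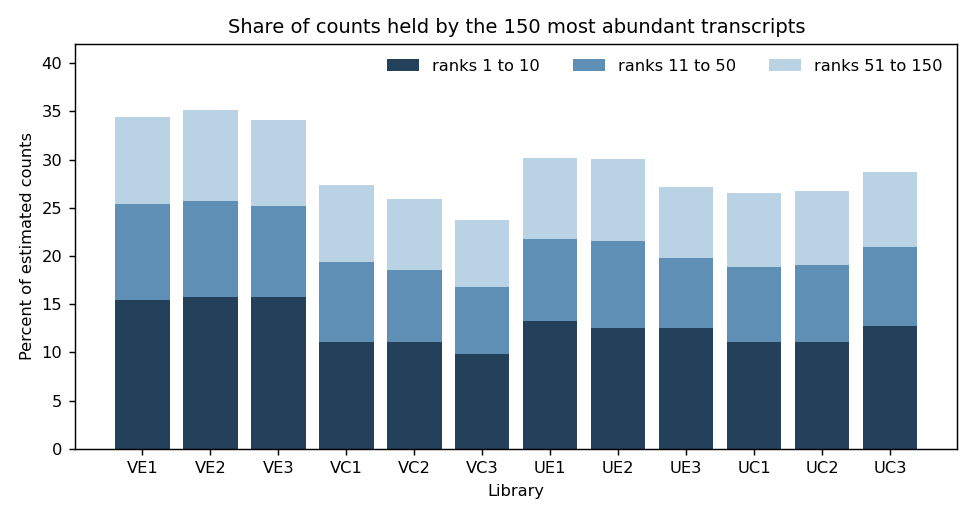
Percent of estimated counts held by the 150 most abundant transcripts in each of the 12 libraries, split by rank of mean CPM. Each bar is 1 library. VE libraries reach 34.1% to 35.1% and all others lie between 23.8% and 30.2%.

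A larger share in VE lowers every other transcript when libraries are scaled by their totals. The test used here instead scales libraries by TMM, the trimmed mean of M-values of edgeR, whose factors were 0.81 to 0.88 in VE, 0.96 to 1.16 in VC, 0.98 to 1.09 in UE and 1.05 to 1.14 in UC. CPM values in the text are scaled by library totals, as in the choice of members, and log2 fold changes come from the TMM-scaled fit. Against TMM, scaling by totals moved the fold changes of all genes together. Under totals the median over all genes tested was 0.33 on the log2 scale for VC relative to VE and -0.32 for VE relative to UE, and under TMM it was near 0 in both. A printed CPM ratio and its fold change can therefore differ by about that much.

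The most abundant member by CPM, Cluster-20123.56357, had 45398, 46218 and 35548 CPM in VE1, VE2 and VE3. It had 30097, 20726 and 12272 CPM in VC1, VC2 and VC3, 23657, 19087 and 17882 in UE1, UE2 and UE3, and 21280.3, 16219.6 and 19597 in UC1, UC2 and UC3. All VE libraries lay above the other 9, and VC ranged from above every unvariegated library to below all of them. Its FPKM, the deposited level per transcript length and library depth, was 75144 ± 10332 in VE and 37114 ± 15709 in VC, against 35833 ± 5379 in UE and 32659 ± 4442 in UC (SD, n = 3).

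Cluster-20123.56322, at rank 3 by mean CPM, had the same order of group means. It stood at 29852, 25436 and 31032 CPM in VE1, VE2 and VE3, at 17259, 17579 and 18111 in VC1, VC2 and VC3, at 16802, 14754 and 9750.0 in UE1, UE2 and UE3, and at 8293, 11347 and 11176 in UC1, UC2 and UC3. Here every VC library exceeded every unvariegated one. On the FPKM scale it had 43014 ± 4419 in VE and 14946 ± 2593 in UC (SD, n = 3).

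Other leading members were nearly level or lower in variegated leaves. Cluster-20123.56221 had 18218 to 21414 CPM in VE and 14012 to 15893 in VC, against 20361 to 24835 in UE and 18010.3 to 23639.6 in UC. Cluster-20123.56163 overlapped between all groups, from 9926 CPM in VC1 to 20836 CPM in UC3. Cluster-20123.55988 had 3275, 3699.6 and 4271 CPM in VE1, VE2 and VE3, against 7178 to 7474 CPM in UE and 7912 to 9434 CPM in UC. Its VC libraries spread from 3801 CPM in VC1 to 7599 CPM in VC3.

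Of the remaining members among the leading 10, Cluster-20123.56361 followed the first, with 14874 ± 1311 CPM in VE and 9191 ± 3139 in VC, against 6847 ± 1119 in UE and 6496 ± 873 in UC (SD, n = 3). Cluster-20123.56678 was set apart by UE, where UE1, UE2 and UE3 had 6467, 13756 and 23022 CPM. Cluster-20123.56235 had 8002 ± 828 CPM in VE and 7068 ± 519 in VC, against 10226 ± 514 in UE and 10371 ± 1275 in UC. Cluster-20123.56139 ranged from 5517 CPM in VC3 to 9704 CPM in UC3, and Cluster-20123.55714 from 4941 CPM in VC1 to 7784 CPM in UE2.

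Ordering by FPKM changed the picture, because CPM grows with transcript length. Only 84 of the 150 members were also among the 150 genes with the highest mean FPKM. Effective length, taken from the ratio of count to FPKM, had a median of 967 bases over members and 1226 bases over the 13726 tested genes averaging 10 CPM or more. It ran from 8.63 to 6720 bases, and 20 members were under 500 bases. Cluster-20123.56678, sixth by CPM, had the longest effective length and was at rank 108 by FPKM, with a mean of 1382 FPKM.

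The highest mean FPKM of all genes belonged to Cluster-20123.56205, with 188112 FPKM at an effective length of 8.63 bases. This single gene held 13.6% ± 1.06 of the FPKM sum in VE and 8.95% ± 1.59 in VC, against 10.5% ± 2.57 in UE and 8.88% ± 1.13 in UC (SD, n = 3). In CPM it was an ordinary member, with 2191 ± 208 in VE and 1360.0 ± 238 in VC, against 1608 ± 449 in UE and 2378 ± 505 in UC. Its effective length was 8.11 to 9.43 bases in the libraries of VE, VC and UE, but 12.3 to 17.6 bases in those of UC. The ratio of UC to UE was thus 1.48 by mean CPM and 0.81 by mean FPKM, so that the direction turned with the unit.

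Cluster-20123.59089, at rank 4 by FPKM, had an effective length of 30.7 bases, and its ratio of UC to UE was 1.15 by CPM and 0.80 by FPKM. Over the members, effective lengths in UC1, UC2 and UC3 were longer than in the VE, VC and UE libraries by 24.4, 22 and 8.91 bases, while the latter lay within -2.55 and 2.75 bases. For the 71 members over 1000 bases the log2 ratio of UC to UE by FPKM fell below that by CPM by a median of only -0.017. For 17 members the 2 units gave opposite signs, but most of these had a log2 ratio near 0 by CPM. An example is Cluster-20123.55629, with 0.019 by CPM and -0.006 by FPKM. Ratios of the shortest members between UC and other groups depended on the unit, as in the 2 named above, and CPM is used below.

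**Figure D2:**
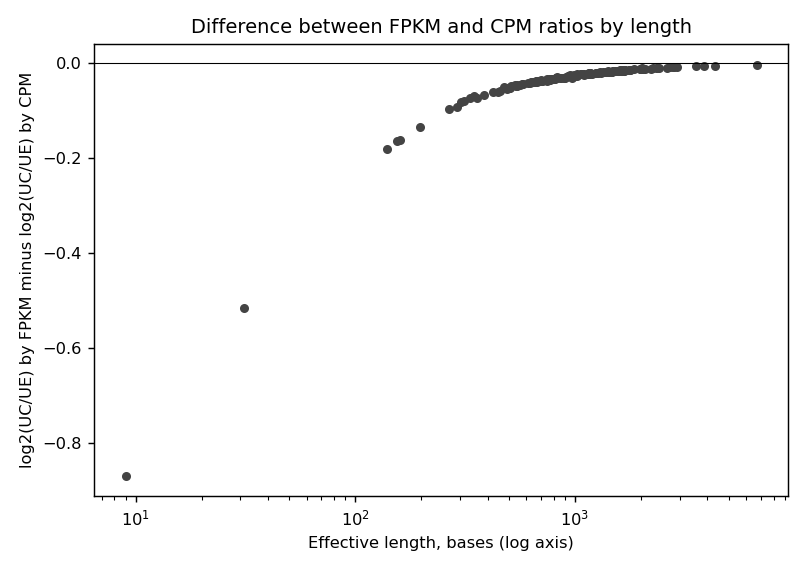
Difference between the log2 ratio of UC to UE computed from mean FPKM and from mean CPM, against effective length in bases on a log axis, for the 150 members (1 point each). The shortest 2 members, at 8.63 and 30.7 bases, lie far below 0, and members over 1000 bases lie close to it.

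Members varied between replicates about as much as other well expressed genes. The pooled within-group SD of log2(CPM + 1) had a median of 0.26 over members, against 0.23 over those 13726 genes. It was largest inside VC, with a median of 0.33, while VE had 0.18, UE 0.22 and UC 0.21. Only 16 members had a pooled SD above 0.5 and 6 above 1.

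The steadiest member was Cluster-20123.55821, with 691, 692 and 651 CPM in VE1, VE2 and VE3, 908, 879.8 and 864 in VC1, VC2 and VC3, 691, 761 and 741 in UE1, UE2 and UE3, and 722, 672 and 674 in UC1, UC2 and UC3. Every VC library exceeded the other 9 on this scale. In the TMM-scaled fit its log2 fold change in VC against VE was 0.06 (SE 0.13, adjusted p = 0.928, edgeR), so that its higher CPM in VC than in VE depended on the scaling. Cluster-20123.55901 lay between 863 and 1027 CPM in all 12 libraries. Cluster-20123.54613 had the third smallest spread of all members and was lower in VC, at 545 ± 57.3 CPM against 841 ± 55.3 in VE (SD, n = 3; log2 fold change -0.95, SE 0.17, edgeR adjusted p = 0.0298). That call was lost without VE1, VE2, VE3, VC2, VC3, UE1 or UC2, with only the libraries compared and in the paired fit of the VE and VC libraries (13 of 23 alternatives kept it, adjusted p up to 0.178).

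At the other extreme, Cluster-20123.56911 was almost missing from some unvariegated libraries and abundant in others. It had 2.42, 2085 and 1.09 CPM in UE1, UE2 and UE3, and 2.19, 1056 and 268 CPM in UC1, UC2 and UC3. All 6 variegated libraries expressed it, from 421 CPM in VE2 to 1392 CPM in VC3. Neither zone nor phenotype separates its libraries: UE1, UE3 and UC1 were near 0, and UE2, UC2 and UC3 were not.

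A milder form of this order was seen in Cluster-20123.58084, with 143, 3699 and 402 CPM in UE1, UE2 and UE3, and 319, 3070.3 and 1223 in UC1, UC2 and UC3. Cluster-20123.56602 had 141, 1233 and 325 CPM in the UE libraries and 214, 1420.3 and 549 in those of UC. Across the 12 libraries, which share their totals, the total-scaled level of Cluster-20123.56602 had the highest correlation of all members with that of Cluster-20123.56911 (Pearson r = 0.88). Cluster-20123.60456 differed in the opposite way: UE2 had 9.68 CPM while UE1 and UE3 had 750.2 and 2021, and its VC libraries, at 136 to 294 CPM, lay below those of VE at 1041 to 1400.4.

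Differences between replicates were also seen in principal components of the whole set. Members were centred but not scaled to equal variance, so the most variable ones weigh more. Weights of single members are not given. In principal components of log2(CPM + 1) over the members, the first held 50% of the variance and the second 29.9%. The first ran from -8.39 in VE1 to 7.92 in UE3, with all variegated libraries below 0 and all unvariegated ones above it. VC1 was at -6.80, VC2 at -3.69 and VC3 at -0.86. On the second, UE2 was at -7.69, VC3 at -5.91, UC2 at -4.68, UC3 at -2.41 and VC2 at -2.15, while the other 7 libraries lay between 1.20 and 4.82. UE2 thus stood apart from UE1 and UE3, and VC3 from VC1, and the counts of members called are also given without the libraries that move them.

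**Figure D3:**
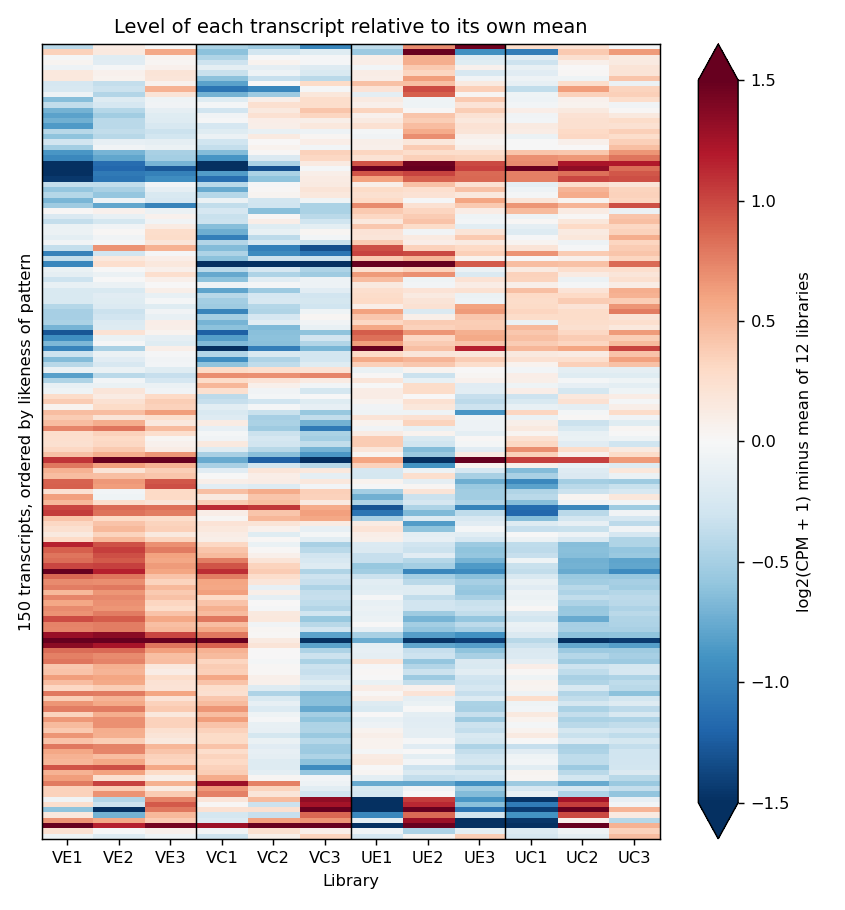
Level of each of the 150 members relative to its own mean over the 12 libraries, as log2(CPM + 1) minus that mean. Each horizontal line is a member, ordered by likeness of pattern, and columns are libraries. A large lower block is high in VE, high in VC1 but not in VC3, and low in UE and UC, and a few lines at the bottom contrast UE2 with UE1 and UE3.

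A large block of members moved together with Cluster-20123.56357. Over the 12 libraries, 47 of the other 149 members had a Pearson r of at least 0.8 with it on total-scaled CPM and 8 had an r of -0.8 or lower. On TMM-scaled CPM these numbers were 63 and 0, so the opposed members depended on the scaling. The closest was Cluster-20123.55478 (r = 0.98), with 1077 ± 122 CPM in VE and 737 ± 243 in VC, against 699 ± 78.7 in UE and 682 ± 107 in UC (SD, n = 3). By group mean, 73 members were highest in VE, 45 in UE, 19 in UC and 13 in VC on total-scaled CPM. On TMM-scaled CPM the numbers were 96, 40, 8 and 6.

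The groups shared most of their leading transcripts. Of the 150 most abundant genes of each group, 143 were common to UE and UC, 121 to VE and VC, 108 to VC and UC, and 104 to VE and UE. In all 4 groups 93 genes were among the leading 150, and 73 genes were so in every single library, out of 266 that were so in at least 1.

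At the leaf edge, variegated plants differed from unvariegated plants in many of the abundant transcripts, mostly upwards. Of the 150 members, 42 were higher and 6 lower in VE than in UE, together 32%. Of all 59225 genes tested 5.27% were called, 3.33% higher and 1.94% lower, and of the next 850 genes by mean CPM 24.2% were called. The median log2 fold change was 0.55 over members and -0.04 over all genes. The members were chosen with the VE and UE libraries included: for the 150 genes highest in the VC and UC libraries the median was 0.25, for the 150 highest by median CPM 0.30, and for the members without UE3 0.35. The test was edgeR's quasi-likelihood test on all 12 libraries with Benjamini-Hochberg adjustment over all genes and a threshold of 0.05. DESeq2 called 68 members higher and 13 lower, together 81, against 8.19% of all genes with an adjusted p (4.97% higher, 3.22% lower). At an unadjusted p below 0.05 edgeR had 91 members, 60.7%, against 20.2% of all genes.

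The count and its split depended on single libraries and on scaling. It fell to 12 when VE1 was omitted, to 16 for VE2, to 28 for VC2, to 17 for UE1, to 22 for UE2 and to 10 for UE3. With VE1 and UE1 both omitted it was 1, and only Cluster-20123.55290 passed. With library totals as the scale, 33 members were higher and 18 lower, and with FPKM (log2 of FPKM plus 1) 31 and 15. None of the 48 changed direction under either. By total-scaled CPM, all 3 VE libraries lay above all 3 UE libraries for 68 members (45.3%; 8.21% of all genes tested) and below them for 38 (25.3%; 23.8% of all).

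Cluster-20123.56483 had the largest increase, with 6082, 4080.2 and 2583 CPM in VE1, VE2 and VE3 and 429, 259 and 272 CPM in UE1, UE2 and UE3. Every VE library was several times above every UE library, although VE itself spread widely. All its UE libraries lay below 548 CPM, the mean of the last member, so it entered through higher libraries. So did Cluster-20123.55629, Cluster-20123.56558 and Cluster-20123.55716, whose UE means lay below that level, and, with low VE libraries, Cluster-20123.65098. The size of such changes is in part tied to the choice of members. Its log2 fold change was 4.02 (SE 0.86, adjusted p = 0.0261, edgeR quasi-likelihood). The call was lost without VE1, VE2, UE1, UE2 or UE3 and without VE1 and UE1 together (adjusted p from 0.0654 to 0.174), with a range of 2.62e-05 to 0.174 over 22 alternatives. It was also lost with no low-count filter.

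Cluster-20123.55629 was 1 of 5 among the 42 increases whose call was lost in a single alternative, and no increase was called in all of them. It had 1361, 1229.8 and 1208 CPM in VE1, VE2 and VE3 and 277, 492 and 339.7 CPM in UE1, UE2 and UE3. The log2 fold change was 2.05 (SE 0.29, adjusted p = 0.00506, edgeR), and the call was lost only with VE1 and UE1 both omitted (adjusted p = 0.0816; range over 22 alternatives 5.62e-11 to 0.0816).

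Cluster-20123.56558 rose by 2.32 (SE 0.43, adjusted p = 0.0154, edgeR) and Cluster-20123.55716 by 2.24 (SE 0.38, adjusted p = 0.0105) on the log2 scale. Their means in VE and UE were 1942 ± 729 and 476 ± 87 CPM for the former and 1487 ± 185 and 382 ± 61.5 CPM for the latter (SD, n = 3). Cluster-20123.55553 rose by 1.98 (SE 0.42, adjusted p = 0.0245, edgeR), with 7798 ± 1509 CPM in VE and 2402 ± 673 in UE. The call of Cluster-20123.56558 was lost without VE1, UE1, UE2 or UE3, that of Cluster-20123.55716 without UE3, and that of Cluster-20123.55553 without VE1, VE2, UE1, UE2 or UE3, with adjusted p up to 0.126, 0.103 and 0.138 over 22 alternatives. Those of Cluster-20123.56558 and Cluster-20123.55553 were also lost with no low-count filter. Without VE1 and UE1 together each of these calls was lost.

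The leading transcript, Cluster-20123.56357, was also called higher in VE, with a log2 fold change of 1.35 (SE 0.34, adjusted p = 0.0409, edgeR). So were Cluster-20123.56322 (1.33, SE 0.24, adjusted p = 0.0132) and Cluster-20123.56361 (1.40, SE 0.29, adjusted p = 0.0209). Of the 10 leading members by CPM no other passed. The call of Cluster-20123.56357 was kept in 8 of 22 alternatives (adjusted p up to 0.208): among the omissions of 1 library it held only without VC1 or VC3, and it was lost on the FPKM scale. That of Cluster-20123.56322 was lost without VE1 and on the FPKM scale (adjusted p up to 0.0887), and that of Cluster-20123.56361 without VE1, VE2, UE1, UE2 or UE3 (adjusted p up to 0.14). With VE1 and UE1 both omitted none of the 3 passed.

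Among the decreases at the edge, Cluster-20123.65098 had 83.7, 182 and 170.2 CPM in VE1, VE2 and VE3 and 1163, 1224 and 838 CPM in UE1, UE2 and UE3. No VE library came near the UE range. The log2 fold change was -2.63 (SE 0.41, adjusted p = 0.0079, edgeR), lost only without VE1 and UE1 together (adjusted p = 0.0922; range over 22 alternatives 7.3e-11 to 0.0922). Cluster-20123.55290, with 279.7, 539 and 555 CPM in VE and 2154, 2261 and 2019 CPM in UE, was called under all 22 alternatives (log2 fold change -1.96, SE 0.25, adjusted p = 0.00336; range 8.37e-14 to 0.0406).

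Cluster-20123.58379 had 417, 534 and 595 CPM in VE and 1735, 2112 and 2074 CPM in UE (change of -1.66 on the log2 scale, SE 0.23, adjusted p = 0.00477, edgeR), a call lost only without VE1 and UE1 together (adjusted p = 0.0666). Cluster-20123.55009 fell by 2.10 (SE 0.48, adjusted p = 0.0311), from 2944 ± 610.0 CPM in UE to 574 ± 263 in VE (SD, n = 3). This call was lost without VE1, VE2, VC2, UE1, UE2 or UE3 (adjusted p up to 0.19 over 22 alternatives). Cluster-20123.54874 had 681 ± 272 CPM in VE and 2475 ± 957 in UE (change of -1.61 on the log2 scale, SE 0.41, adjusted p = 0.0477). It kept the call only without VC1 or UE3 among the omissions of 1 library, with adjusted p up to 0.328 over 22 alternatives.

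**Figure D4:**
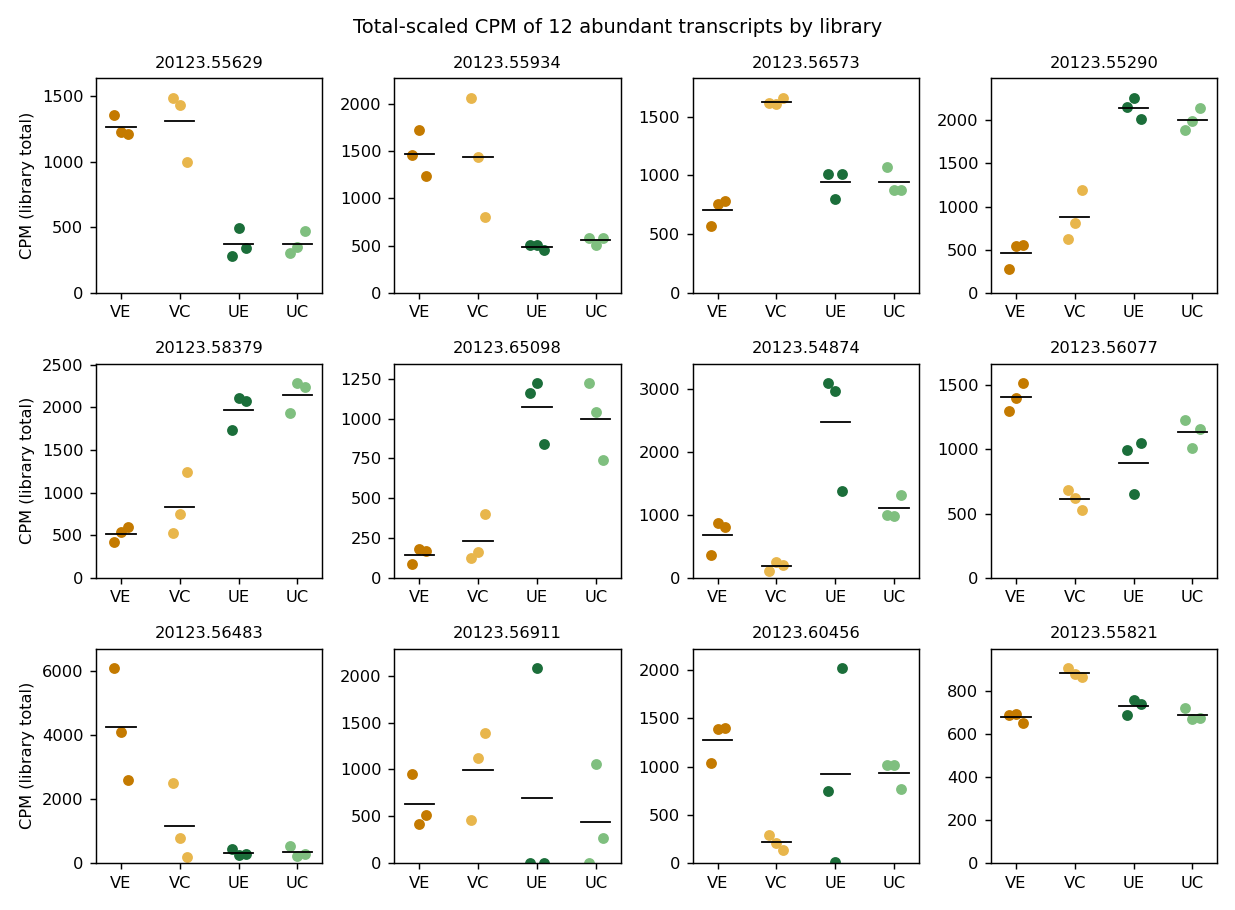
Total-scaled CPM of 12 named members in each library. Points are libraries (replicates 1 to 3 from left to right), horizontal bars are group means, and each panel starts at 0. Cluster-20123.55290 has 279.7 to 555 CPM in VE and 2019 to 2261 in UE, and Cluster-20123.56911 is near 0 in UE1, UE3 and UC1.

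In the leaf centre the phenotypes were compared in the same way, and more of the called members were lower than higher. Of the 150 members, 5 were higher and 18 lower in VC than in UC, together 15.3%. The 18 include Cluster-20123.59089, of 30.7 bases, whose effective length was longer in UC. Its call was lost on the FPKM scale and kept in 8 of 22 alternatives (adjusted p up to 0.69). Over all genes tested 5.1% were called, 2.67% higher and 2.43% lower, and over the next 850 genes 15.2%. The median log2 fold change was 0.05 over members, with a range of -0.11 to 0.14 over the alternatives, and -0.04 over all genes. DESeq2 called 16 higher and 27 lower, against 9.63% of all genes with an adjusted p (5.58% higher, 4.05% lower), and edgeR at an unadjusted p below 0.05 had 59 members, 39.3%, against 21.5% of all genes. By total-scaled CPM the groups did not overlap for 16 members higher in VC (10.7%; 12.2% of all genes tested) and 42 lower (28%; 14.3%). The count was 13 when VE2 was omitted, 7 for VC1, 2 for VC2 and 35 for VC3. It was 15 without UE1, 9 without UC1, 7 without UC2 and 9 without UC3, and 15 without VE1 and UE1 together. Without VC3 more members were higher than lower, 20 against 15.

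Cluster-20123.55629 was higher in the centre as well, with 1488, 1435 and 1002 CPM in VC1, VC2 and VC3 and 306, 347 and 471 CPM in UC1, UC2 and UC3. The groups were far apart, with a log2 fold change of 1.88 (SE 0.29, adjusted p = 0.0064, edgeR), and the call held in all 22 alternatives (adjusted p from 1.51e-09 to 0.0346). Cluster-20123.55934 had 2068, 1438 and 805 CPM in VC1, VC2 and VC3 and 583, 504 and 578 CPM in UC1, UC2 and UC3. Its log2 fold change was 1.48 (SE 0.33, adjusted p = 0.028, edgeR), a call lost without VC1, VC2, UC1, UC2 or UC3 (adjusted p up to 0.103 over 22 alternatives).

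Cluster-20123.56573 was elevated in VC alone. It had 1616, 1607 and 1660.1 CPM in VC1, VC2 and VC3, 1071, 877 and 878 in UC1, UC2 and UC3, 567, 752 and 784 in VE1, VE2 and VE3, and 1011, 795 and 1014 in UE1, UE2 and UE3. All VC libraries exceeded the other 9. Against UC the log2 fold change was 0.86 (SE 0.15, adjusted p = 0.0121, edgeR), lost without VC2 or UC2 (adjusted p up to 0.0583 over 22 alternatives).

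Cluster-20123.52488 and Cluster-20123.56045 completed the 5, with log2 fold changes of 0.81 (SE 0.17, adjusted p = 0.0211, edgeR) and 0.86 (SE 0.22, adjusted p = 0.0475). The former had 732 ± 142 CPM in VC and 429 ± 62.1 in UC, and the latter 879 ± 60.4 and 506 ± 37.6 (SD, n = 3). The call of Cluster-20123.52488 was lost without VC2, UC1 or UC2 and that of Cluster-20123.56045 in 12 of 22 alternatives, among them the omission of any VE or UC library, of VC1, VC2 or UE1, with adjusted p up to 0.0995 and 0.16. With only the libraries compared, the call of Cluster-20123.52488 was lost as well.

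Of the called decreases in the centre, that of Cluster-20123.54874 was the largest, with 102, 253 and 198 CPM in VC1, VC2 and VC3 and 1002, 985 and 1314 CPM in UC1, UC2 and UC3. The log2 fold change was -2.54 (SE 0.43, adjusted p = 0.01, edgeR), and the call held without any single library (adjusted p from 4.22e-09 to 0.0556 over 22 alternatives, lost with no low-count filter). Cluster-20123.65098 fell by 2.10 (SE 0.40, adjusted p = 0.0165), with 121, 164 and 404 CPM in VC and 1224, 1040.1 and 738 in UC. This call was lost without VC1, VC2, UC1 or UC2 (adjusted p up to 0.0892 over 22 alternatives). It was also lost with no low-count filter and with only the libraries compared.

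Cluster-20123.54864 had 267 ± 142 CPM in VC and 1023 ± 203 in UC (log2 fold change -1.93, SE 0.44, adjusted p = 0.0342, edgeR), a call lost without VE2, VC1, VC2, UE3, UC1, UC2 or UC3. Cluster-20123.58379 had 836 ± 368 CPM in VC and 2151 ± 194 in UC (log2 fold change -1.34, SE 0.23, adjusted p = 0.01), lost without VC2. That call was also lost with only the libraries compared (adjusted p = 0.0548, edgeR). Cluster-20123.49484 had 488 ± 117 CPM in VC and 1207 ± 134 in UC (log2 fold change -1.22, SE 0.29, adjusted p = 0.0384), lost without VE2, VC2, VC3, UE1, UC1, UC2 or UC3. Adjusted p reached 0.191, 0.063 and 0.179 over 22 alternatives in this order (SD, n = 3 throughout). The calls of Cluster-20123.54864 and Cluster-20123.49484 were also lost with no low-count filter and with only the libraries compared. That of Cluster-20123.49484 was lost with the replicate block as well.

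The 2 phenotype comparisons share no library. They are not taken as independent, since deviations of same-numbered VE and VC libraries correlated (r from 0.11 to 0.49). Across members, which are not independent replicates, their log2 fold changes had a Pearson r of 0.81, against 0.79 over the next 850 genes and 0.48 over all genes tested. The same sign was seen in 116 of 150 members (77.3%), or 125 with library totals, against 74% of the next 850 genes and 65.5% of all. Both called 9 members, which is 39.1% of the calls in the centre and 18.8% of those at the edge, and 8 of the 9 had the same direction. The exception, Cluster-20123.56077, was higher in VE than in UE (0.94, SE 0.20, adjusted p = 0.0239, edgeR) and lower in VC than in UC (-0.81, SE 0.20, adjusted p = 0.0404). The first call was lost with library totals, on the FPKM scale and without any VE or UE library (12 of 22 alternatives kept it, adjusted p up to 0.131). The second was lost without any VE, VC or UC library, without UE1 or UE3 and with only the libraries compared (9 of 22 kept it, adjusted p up to 0.149). For the 42 members higher at the edge the median in the centre was 0.58 on the log2 scale, where 3 of them were called higher and 1 lower. Of these 42, 34 were highest in VC1 among the VC libraries and 35 were lowest in VC3.

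**Figure D5:**
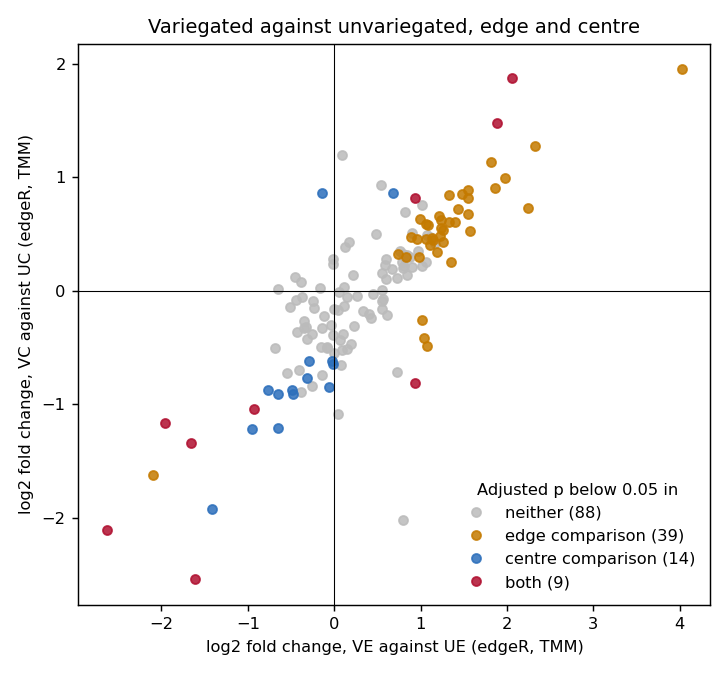
Log2 fold change of the 150 members in VE against UE (horizontal) and in VC against UC (vertical), from the TMM-scaled edgeR fit, 1 point per member. Colours mark members with adjusted p below 0.05 at the edge (39), in the centre (14), in both (9) or in neither (88). Most points lie at lower left or upper right, with the same sign in both.

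Within variegated leaves, most abundant transcripts had lower estimates in the centre than at the edge, but few passed the test. Of the 150 members, 1 was higher and 9 lower in VC than in VE, together 6.67%, against 0.954% of all genes tested (0.383% higher, 0.571% lower) and 5.06% of the next 850 genes. The median log2 fold change was -0.65 over members, or -0.34 with library totals, and 0.00 over all genes. By total-scaled CPM the groups did not overlap for 50 members lower in VC (33.3%; 3.62% of all genes tested) and 12 higher (8%; 22.9%). At an unadjusted p below 0.05 edgeR had 100 members, 66.7%, against 12.4% of all genes. DESeq2 called 1 higher and 56 lower, together 57, against 3.81% of all genes with an adjusted p (1.64% higher, 2.17% lower).

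Deviations of same-numbered VE and VC libraries correlated, as given with the processing, but a pairing is not established. With the replicate number as a block in the fit of all 12 libraries, 1 member was higher and 22 lower, and 1.09% of all genes were called. In a paired fit of only the VE and VC libraries 2 were lower, Cluster-20123.54874 (adjusted p = 0.0228, edgeR) and Cluster-20123.58673 (adjusted p = 0.0466), against 0.365% of all genes. The unpaired count of 10 fell to 4 when VE1 was omitted and to 1 when VE2 or VE3 was. It rose to 31 when VC1 was omitted. It was 0 without VC2, 3 without VC3, 6 without UE1, 6 without UC1, 4 without UC2, 6 without UC3 and 2 with VE1 and UE1 both omitted.

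Cluster-20123.56077 had the lowest adjusted p. It stood at 1299.5, 1399.7 and 1515 CPM in VE1, VE2 and VE3, 686, 623 and 529 in VC1, VC2 and VC3, 990.3, 649.7 and 1046 in UE1, UE2 and UE3, and 1229.8, 1011 and 1158 in UC1, UC2 and UC3. VE lay above and VC, apart from an overlap with UE2, below the unvariegated libraries. The log2 fold change was -1.51 (SE 0.20, adjusted p = 0.00809, edgeR), lost without VC2 and in the paired fit of the VE and VC libraries (adjusted p up to 0.0633; range over 23 alternatives 9.92e-11 to 0.0633).

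Cluster-20123.54874 fell further, by 2.22 (SE 0.42, adjusted p = 0.0377, edgeR), with 368, 865 and 809 CPM in VE1, VE2 and VE3 against the VC values given above. Its call was lost without any VC or UC library, VE2, VE3, UE1 or UE2 (adjusted p up to 0.204 over 23 alternatives). The gene had its highest values, 3089.6 and 2963 CPM, in UE1 and UE2.

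Cluster-20123.56299 had 1208 ± 408 CPM in VE and 485 ± 114 in VC (log2 fold change -1.61, SE 0.31, adjusted p = 0.0398, edgeR). Cluster-20123.56220 had 3825 ± 445 and 1665 ± 524 CPM (SE of the log2 fold change 0.26, adjusted p = 0.0261), and Cluster-20123.58673 had 872 ± 83.8 and 421 ± 26.6 CPM (-1.38, SE 0.25, adjusted p = 0.0315; SD, n = 3). The call of Cluster-20123.56299 was lost without VE2, VE3, VC2, VC3, UE2, UC1, UC2 or UC3 and with the replicate block. It was also lost with no low-count filter, with only the libraries compared and in the paired fit of the VE and VC libraries. The call of Cluster-20123.56220 was lost without VE1, VE2, VE3 or VC2, with only the libraries compared and in that paired fit. That of Cluster-20123.58673 was lost without any VE or VC library or UC2. Without VE1 and UE1 together, the calls of Cluster-20123.56220 and Cluster-20123.58673 were lost. Adjusted p reached 0.204, 0.146 and 0.14 over 23 alternatives.

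The single increase was Cluster-20123.56573, with the values by library given above and a log2 fold change of 0.89 (SE 0.15, adjusted p = 0.0256, edgeR). The call was lost without VE1, VE2, VE3 or VC2 (adjusted p up to 0.129 over 23 alternatives). It was also lost with only the libraries compared, in the paired fit of the VE and VC libraries and without VE1 and UE1 together. Of the 9 members called lower, 6 were also called higher in VE against UE, a comparison that shares the VE libraries.

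In unvariegated leaves no member passed the test between centre and edge. The edgeR test called 0 of 150 members, against 0.00169% of all genes tested, and DESeq2 also called 0, against 0.133% (0.0639% higher, 0.0686% lower). At an unadjusted p below 0.05 there were 2 members, 1.33%, against 5.22% of all genes. Both had lower estimates in UC: Cluster-20123.54874 had 1100.4 ± 185 CPM in UC and 2475 ± 957 in UE (change of -1.29 on the log2 scale, SE 0.41, edgeR adjusted p = 0.871), and Cluster-20123.56322 had 10272 ± 1716 and 13769 ± 3628 CPM (-0.54, SE 0.24, adjusted p = 0.953; SD, n = 3). The median log2 fold change was -0.17 over members and 0.00 over all genes. Estimates lay above 0 for 21 of 150 members, or 49 with library totals, against 29155 of the 59225 genes tested. In VC against VE these member counts were 21 and 40. The sign was the same in both comparisons for 120 members.

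By total-scaled CPM the UC libraries lay above all UE libraries for 5 members (3.33%; 8.31% of all genes tested) and below them for 2 (1.33%; 2.7%). The 5 were Cluster-20123.55988, Cluster-20123.56412, Cluster-20123.55934, Cluster-20123.56000 and Cluster-20123.56390, and the 2 were Cluster-20123.54874 and Cluster-20123.54987, all named after their values were seen. Cluster-20123.56412, for example, had 1385, 1385 and 1617 CPM in UC1, UC2 and UC3 and 1363, 1232 and 1059 in UE1, UE2 and UE3, so that the gap between the groups was small.

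An interaction term tested whether centre and edge differed by another amount in variegated than in unvariegated leaves. No member passed in edgeR, against 0.0962% of all genes tested (0.0355% higher, 0.0608% lower). At an unadjusted p below 0.05 there were 27 members, 18%, against 8.91% of all genes, and the median interaction was -0.51 over members and -0.01 over all genes. With library totals these medians were -0.28 and 0.22. Cluster-20123.56077 came closest (interaction -1.75, SE 0.28, edgeR adjusted p = 0.0534), since VC was below VE while UC was, by its estimate, slightly above UE (log2 fold change 0.24, SE 0.20).

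DESeq2 called 6 members in the interaction, against 0.802% of all genes with an adjusted p (0.41% higher, 0.393% lower). They were Cluster-20123.56573 with a more positive difference in variegated leaves (adjusted p = 0.000602, DESeq2), and, with a more negative one, Cluster-20123.56077 (2.95e-06), Cluster-20123.56390 (0.00408), Cluster-20123.56205 (0.0126), Cluster-20123.56220 (0.0163) and Cluster-20123.56495 (0.0411). They were named after their values were seen. The call of Cluster-20123.56205 rests on counts, and its ratio of UC to UE was 1.48 by CPM and 0.81 by FPKM. Its direction in UC against UE thus turned with the unit. Of the 150 members, 64 were called by edgeR in at least 1 of the 5 comparisons and 86 in none.

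Some members had neighbouring identifiers. There were 23 pairs of members that followed each other directly in number and were at most 5 apart, with 43 members among them. Pairs with another member between them were not counted. How many such pairs randomly drawn identifiers would give was not computed, so the count is a description only. Over the 12 libraries, which share their totals, the Pearson r of such pairs on total-scaled CPM ran from -0.87 to 0.94 with a median of 0.40, against a median of 0.08 over all pairs of members. It was at least 0.8 in 5 pairs and below 0 in 8.

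Cluster-20123.56357 and Cluster-20123.56361 had an r of 0.94, and so had Cluster-20123.58175 and Cluster-20123.58177. Cluster-20123.55626 and Cluster-20123.55629 went opposite ways (r = -0.86; -0.57 on TMM-scaled CPM): the former had 602 ± 77.6 CPM in VE and 891 ± 42.9 in UE, and the latter 1266 ± 82.4 and 369.8 ± 111 (SD, n = 3). Whether such neighbours share sequence was not tested. Counts were not whole in 74% of the members' values, against 55% over all genes tested, and 117 members had at least 1 such value. The counting tool divides reads that match several transcripts, so members with near-identical copies are uncertain as separate units.

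The set has no sharp lower edge. The last 5 members inside it were Cluster-20123.54714, Cluster-20123.57816, Cluster-20123.55949, Cluster-20123.58175 and Cluster-20123.54771, with mean levels of 573, 571, 565, 559 and 548.3 CPM. The next 5 outside were Cluster-20123.56028, Cluster-20123.53728, Cluster-20123.58573, Cluster-20123.57117 and Cluster-20123.59923, with 548.0, 545, 543, 540.3 and 539 CPM.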

How the data were processed

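The authors deposited expected counts and FPKM values for 185746 genes in 12 libraries. The tools listed in the submitters' processing notes are CASAVA 1.8 together with Bowtie2 and RSEM. Assembler, clustering and reference are not given in the sources used here. Per the labels' protocols, polyadenylated RNA was copied with random hexamers, and no strand-marking step is described. The members, lists and tests were chosen with earlier results of these data known.

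Expected counts were rounded. The filter filterByExpr (minimum count 10, minimum total 15) kept 59225 genes, all 150 members among them. The fit used edgeR 4.0.16 (R 4.3.3) with TMM scaling and robust quasi-likelihood tests over 4 groups, and p was adjusted over all genes. Each standard error is the size of the log2 fold change over the root of its F statistic. The fit was also run on simulated counts of independent libraries, with changes in VC alone and a spread tied to abundance. Such counts lack the unequal spread of groups seen here, so the run does not bear on these calls. Alternatives used DESeq2 1.42.0, limma-trend 3.58.1 on deposited FPKM values after log2 with a pseudocount of 1 or 0.1, RLE or total scaling, other filters, a replicate block and omitted libraries.

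Genes were named by rule: the 10 members with the highest mean CPM, the 5 with the highest mean FPKM, up to 5 called members with the highest and 5 with the lowest fold change per comparison and no overlap between groups, the 3 most and 3 least variable members, the members at ranks 146 to 155, and neighbouring identifiers. Others were named after their values were seen. Deviations from group means correlated between same-numbered VE and VC libraries (r from 0.11 to 0.49 over 13726 genes, each library best with its own number). With 3 libraries per group such a match cannot establish a pairing, and r was only 0.11 for VC2 with VE2. Between same-numbered UC and UE libraries r was 0.42, 0.31 and -0.01 for replicates 1, 2 and 3. The labels do not state a pairing, so fits with the replicate number are given only as alternatives.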

Additional observations from a re-analysis of the deposited data

How the results depend on the processing

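Settings not named here changed the count of members called by less than 1.5 times. No setting reversed a call of edgeR in VC against VE, VC against UC or VE against UE; members without a call were not compared in this way. In VC against VE, where 10 members were called, the count was 24 with no low-count filter, 57 in DESeq2, 23 with the replicate block, 2 in the paired fit of only the VE and VC libraries, 4 unpaired with only those libraries, 2 without VE1 and UE1 together and 1 at an adjusted p below 0.01; with 1 library left out it was 0 to 31. In VC against UC, with 23 called, it was 43 in DESeq2, 8 with only the libraries compared, 15 without VE1 and UE1 together and 1 at an adjusted p below 0.01, and 2 to 35 with 1 library left out. In VE against UE, with 48 called, it was 81 in DESeq2, 1 without VE1 and UE1 together and 7 at an adjusted p below 0.01, and 10 to 67 with 1 library left out. In the interaction, with 0 called, it was 3 with no low-count filter, 1 with the filter of 1 CPM in at least 3 libraries, 6 in DESeq2 and 0 to 1 with 1 library left out. In UC against UE it was 0 in every setting run.

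The replicate block changed no other count by over 1.5 times (27 in VC against UC, 67 in VE against UE, 0 in UC against UE and in the interaction). Same-numbered libraries had correlations from -0.01 to 0.42 in UC against UE and from -0.16 to 0.11 in the phenotype comparisons. They are not taken as paired. When the 150 genes were chosen by median CPM the share of counts in VE was 33.8% in place of 34.5%, and by mean FPKM it was 30.2%, 22%, 25.4% and 23.9% in VE, VC, UE and UC. With 1 library left out and members chosen again, the shares were 34.1% to 34.7% in VE, 24.8% to 26.7% in VC, 28.6% to 30% in UE and 26.6% to 27.7% in UC. The omission of VE1 and UE1 together and the paired fit of VE and VC were added after the data were seen. FPKM of short members is limited by effective lengths that differed in UC, and the cause was not tested.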
